A study of Mus musculus with 38 samples.

Results

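A set of 10 genes was followed, coding for the inflammatory cytokines interleukin 6 (Il6), leukemia inhibitory factor (Lif), oncostatin M (Osm), interleukin 11 (Il11), interleukin 1 alpha and beta (Il1a, Il1b) and tumor necrosis factor (Tnf), and for the colony-stimulating factors of macrophages (Csf1), of granulocytes and macrophages (Csf2) and of granulocytes (Csf3). They were chosen by name, through the gene symbol of each Ensembl identifier, and all 10 were present among the 55487 genes of the tumor table and of the cell line table. The RNA came from omental tumors of 2 mouse models of high-grade serous ovarian cancer (HGSOC) and from the cell lines that form them. 60577 cells were injected into the peritoneal cavity of female FVB mice and HGS2 cells into female C57BL/6J mice, all aged 8 to 9 weeks. The mice received vehicle or carboplatin at 20 mg/kg with paclitaxel at 10 mg/kg (chemo), in 3 weekly doses that began 21 days (60577) or 49 days (HGS2) after the injection. Tumors were collected on day 1 (TP1), on day 7 (TP2) or on day 21 (TP3), counted from the final dose. The 60577 tumors comprised 3 control and 3 treated at TP1, 3 control and 4 treated at TP2, and 4 treated at TP3. The HGS2 tumors comprised 3 control and 3 treated at TP1, 4 control and 3 treated at TP2, and 4 treated at TP3. No TP3 control was analysed here, so TP3 tumors were set against TP2 controls, where treatment and time cannot be told apart. Each model is a single line in a single strain with its own schedule, so the line, the strain and the age of the tumor cannot be told apart either. The lines themselves were grown as untreated monocultures, with 2 libraries each, and nothing says that these came from separate cultures, so p-values between the lines measure only the spread between libraries, which may be technical.

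The expected counts of a tumor summed to between 17839635 and 49299442 (median 27358649), and those of a cell line library to between 31633121 and 42461995. Levels are given as CPM, counts scaled to a common library size. A gene was called changed when edgeR's quasi-likelihood test (two-sided) gave a Benjamini-Hochberg adjusted p below 0.05 over all genes and an absolute log2 fold change above 1. Low genes were filtered out, and 7 of the 10 members passed in tumors (Il6, Lif, Osm, Il1a, Il1b, Tnf and Csf1) and 2 in the lines (Lif and Csf1). Il11, Csf2 and Csf3 fell below the filter in tumors and are given by their levels.

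Some libraries stood apart. HGS2 TP3 treated replicate 1 had counts above 0 for 16257 genes, against 20038 to 23633 in the other tumors, and is left out of the edgeR fits below. Genes of pancreas acinar cells made up 5.17% of the counts in HGS2 TP1 control replicate 3, 8.25% in HGS2 TP2 control replicate 2 and 5.46% in HGS2 TP3 treated replicate 2, against at most 0.165% in any other tumor. Leaving out these 3 libraries together changed no call of a member. The fits of 60577 alone do not hold these libraries, and no member was called within HGS2. Only calls between the models could thus be lost. The epithelial markers Krt7, Krt8, Krt18, Krt19, Epcam and Cdh1 summed to 1580 to 2892 CPM in the 60577 controls. In the HGS2 controls they summed to only 20.6 to 794 CPM, and 5 of the 6 were called lower than in the 60577 controls, while the HGS2 line held 824 and 1396 CPM and the 60577 line 4331 and 4609 CPM.

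Interleukin 6, leukemia inhibitory factor, oncostatin M and interleukin 11 signal through receptors that share the gp130 chain (Il6st) and activate the transcription factor STAT3. Interleukin 1 and tumor necrosis factor activate NF-kB, and interleukin 1 beta is made as an inactive precursor that inflammasome caspases cleave. Macrophage colony-stimulating factor maintains macrophages, and the granulocyte factors drive the production and survival of neutrophils. In the omentum and in ovarian cancer these cytokines come from malignant cells, fibroblasts, mesothelium and infiltrating myeloid cells.

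Csf1 was by far the most abundant of the 10 per length of transcript. In the TP1 controls of 60577 it stood at 33.3 ± 1.498 CPM per kb (SD, n = 3). Il1b (5.97 ± 1.51) and Lif (5.73 ± 0.362 CPM per kb) came next and did not differ beyond their spread. Tnf (1.31 ± 0.555) and Il1a (1.00 ± 0.160 CPM per kb) followed, again within their spread. Osm was at 0.547 ± 0.0363 and Il6 at 0.359 ± 0.164 CPM per kb. Il11, Csf3 and Csf2 lay between 0.102 and 0.224 CPM per kb. Csf1 thus exceeded the next gene by more than the spread, and most other neighbors in the order did not. The TP1 controls of HGS2 had the same 3 genes on top by group mean, with Csf1 at 42.8 ± 17.9, Il1b at 6.30 ± 5.70 and Lif at 3.34 ± 2.24 CPM per kb (n = 3). In replicate 3 of that group, Tnf (1.307) was above Il1b (1.045) and Lif (0.7445 CPM per kb).

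**Figure D1:**
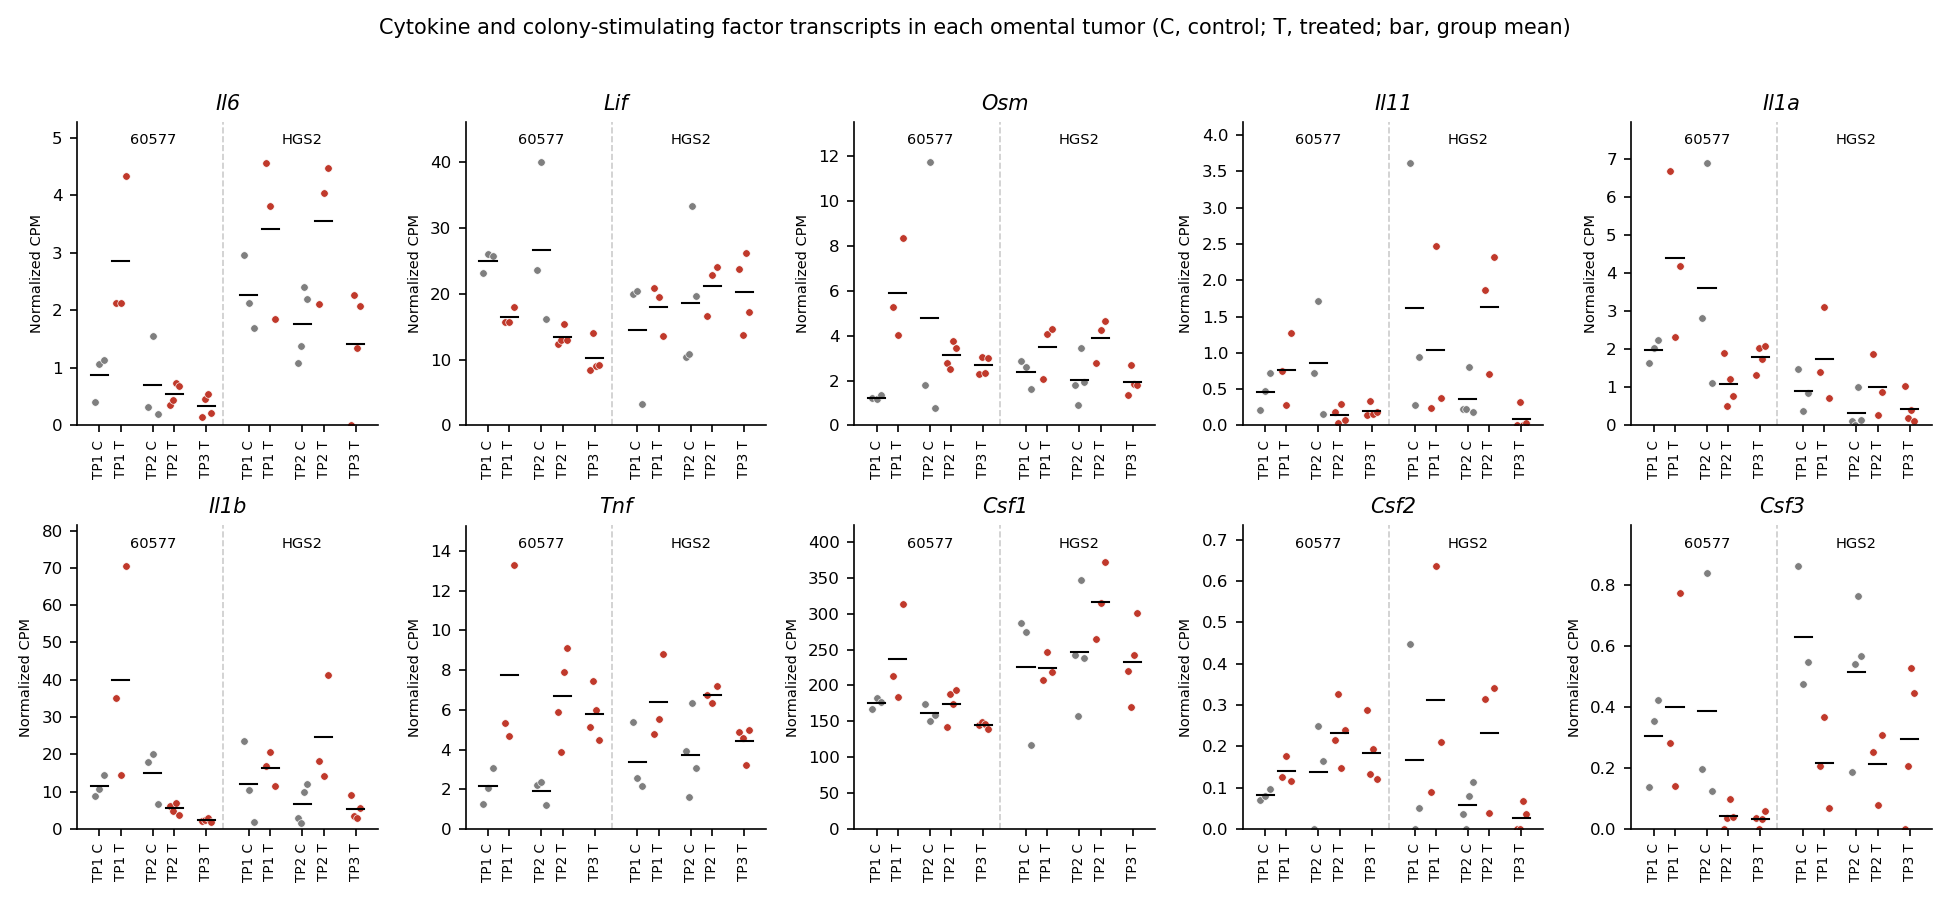
Normalized CPM of each of the 10 genes in each omental tumor (point, gray control and red treated) by model, time point and treatment, with a linear axis from 0 for each gene and a bar at the group mean. Il1b peaks in the treated 60577 tumors of TP1 (14.5 to 70.5 CPM) and is lowest in those of TP3 (1.90 to 2.94 CPM), while Csf1 stays between 117 and 372 CPM in all 34 tumors.

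On the GRCm38 build, Osm (chr11:4236420-4241026, plus strand) and Lif (chr11:4257557-4272514, plus strand) lie next to each other, and Il1a (chr2:129299610-129309972) and Il1b (chr2:129364570-129371139), both on the minus strand, share a stretch of chromosome 2. Csf2 (chr11:54247271-54249667, minus strand) and Csf3 (chr11:98701263-98703629, plus strand) are on chromosome 11 too. Il6 is at chr5:30013114-30019981 (plus strand), Il11 at chr7:4772373-4782859, Tnf at chr17:35199381-35202007 and Csf1 at chr3:107741048-107760469, the last 3 on the minus strand. Values are sums over all exons of a gene.

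The promoters of 8 of the 10 members were found in RefSeq for GRCm38.p6, the C57BL/6J reference, and 4 are shown as examples of the gp130 cytokines (Il6 and Lif), of interleukin 1 (Il1b) and of tumor necrosis factor (Tnf). Il6, Il1b and Tnf were called higher in treated 60577 tumors at TP1, and Lif was called lower at TP2 and TP3. Each sequence holds the 250 bases before the start site, 5′ to 3′ on the strand of the gene. Capitals mark matches to the NF-kB consensus, to the AP-1 motif TGANTCA and to the C/EBP motif TTNNGNAA, searched on both strands, factors that act downstream of interleukin 1, tumor necrosis factor and interleukin 6.
Il6 (chr5:30012864-30013113, plus strand): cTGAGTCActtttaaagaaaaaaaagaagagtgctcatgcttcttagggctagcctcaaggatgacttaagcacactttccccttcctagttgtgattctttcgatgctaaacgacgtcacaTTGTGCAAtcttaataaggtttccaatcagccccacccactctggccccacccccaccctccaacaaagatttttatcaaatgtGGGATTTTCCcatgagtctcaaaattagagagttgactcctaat
Lif (chr11:4257318-4257567, plus strand): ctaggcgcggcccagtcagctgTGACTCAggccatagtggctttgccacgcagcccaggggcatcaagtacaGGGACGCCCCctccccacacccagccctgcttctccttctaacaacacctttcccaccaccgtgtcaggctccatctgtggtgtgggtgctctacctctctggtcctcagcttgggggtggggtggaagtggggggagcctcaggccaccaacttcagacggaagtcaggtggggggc
Il1b (chr2:129371140-129371389, minus strand): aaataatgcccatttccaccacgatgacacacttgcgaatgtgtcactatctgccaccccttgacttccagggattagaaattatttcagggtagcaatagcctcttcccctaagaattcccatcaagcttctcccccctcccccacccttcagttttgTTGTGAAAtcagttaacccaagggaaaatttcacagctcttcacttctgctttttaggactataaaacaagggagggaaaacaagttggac
Tnf (chr17:35202008-35202257, minus strand): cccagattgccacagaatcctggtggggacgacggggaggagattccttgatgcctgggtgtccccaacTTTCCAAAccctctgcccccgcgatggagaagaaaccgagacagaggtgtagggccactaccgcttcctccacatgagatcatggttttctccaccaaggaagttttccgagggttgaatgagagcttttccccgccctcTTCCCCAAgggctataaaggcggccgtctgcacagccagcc
Il6 was the only one of these 4 with all 3 motifs, its NF-kB match 44 bases, its C/EBP match 128 bases and its AP-1 match 249 bases before the start site. Lif had an NF-kB match 178 bases and an AP-1 match 228 bases before it. Il1b had a C/EBP match at 91 bases, and Tnf had C/EBP matches on the opposite strand at 181 and 41 bases. Of all 32851 promoters of this length, 7.25% held the NF-kB consensus, 6.75% the AP-1 motif and 36.8% the C/EBP motif, so the last is common in any set. A match describes the letters only.

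At TP1, 1 day after chemo, treated 60577 tumors held more Il6, Osm, Il1b and Tnf than controls. These 4 of the 7 tested members were called higher and none was called lower, and across the genome 15.6% of the 16241 genes tested were called in this comparison (1567 higher and 968 lower). The median log2 fold change of the 7 was 1.71, against -0.00 over all genes.

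Tnf stood at 1.28, 2.08 and 3.10 CPM in the controls and at 5.31, 4.67 and 13.3 CPM in the treated tumors of TP1. All treated tumors were above all controls, and treated replicate 3 was the highest. The log2 fold change was 1.85 ± 0.45 (SE, edgeR adjusted p = 0.0054), and it was called with any of the 17 tumors left out, with the lowest value, 1.21 (adjusted p = 0.038), without treated replicate 3. Il1b stood at 8.90, 10.7 and 14.5 CPM in controls and at 35.2, 14.5 and 70.5 CPM in treated tumors. The groups met at their edges, since treated replicate 2 was just below the highest control. The log2 fold change was 1.82 ± 0.47 (edgeR adjusted p = 0.0083), and the call was lost without treated replicate 3 (1.13, adjusted p = 0.064) and when both models were fitted together (1.81, adjusted p = 0.064).

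Among the gp130 cytokines at TP1, Osm, which macrophages and neutrophils release, was steady in the controls at 1.21, 1.18 and 1.34 CPM and reached 5.28, 4.03 and 8.33 CPM after chemo. The groups were apart, with a log2 fold change of 2.24 ± 0.67 (edgeR adjusted p = 0.019). The call was lost without treated replicate 3 (log2 fold change 1.91, adjusted p = 0.065) and without each of the 3 TP1 controls in turn (adjusted p between 0.052 and 0.061). Il6, the main driver of the acute-phase response, rose from 0.416, 1.06 and 1.14 CPM to 2.13, 2.12 and 4.34 CPM. Its log2 fold change was 1.71 ± 0.62 (edgeR adjusted p = 0.045), close to the limit, and the call was lost when any of 10 of the 17 tumors was left out, at most to an adjusted p of 0.173 without treated replicate 3. Lif, which keeps stem cells undifferentiated in culture, was the only tested member with a negative log2 fold change, at 23.1, 26.0 and 25.6 CPM in controls and 15.8, 15.8 and 18.0 CPM in treated tumors. The groups did not overlap, but the log2 fold change of -0.59 ± 0.26 was not called (edgeR adjusted p = 0.093).

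Il1a, a cytokine that dying cells release, was at 1.63, 2.05 and 2.25 CPM in TP1 controls and at 6.69, 2.33 and 4.18 CPM in treated tumors, and did not pass (log2 fold change 1.17 ± 0.56, edgeR adjusted p = 0.121). Csf1 was at 167, 183 and 177 CPM against 213, 184 and 314 CPM. Its log2 fold change of 0.44 ± 0.16 had an adjusted p of 0.045 by edgeR and was under the fold limit.

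Markers of several cell types moved at TP1 as well. Of the 8 neutrophil markers 6 were tested and all 6 were called higher, among them the calprotectin subunit S100a8 (log2 fold change 2.50) and the gelatinase Mmp9 (4.70). Their summed level was 14.5 to 37.8 CPM in controls and 383.6, 74.9 and 690 CPM in treated replicates 1, 2 and 3, with Mmp9 the most abundant in each treated tumor. The order of these 3 tumors is that of Il1b, Tnf, Osm and Csf1, though not of Il1a or Lif. Il6 follows it only narrowly, with 2.125 and 2.121 CPM in treated replicates 1 and 2. With 3 tumors such an order can arise by chance. Ly6g, which defines neutrophils, had no count in 2 of the 3 controls and in 2 of the 3 treated tumors. Of the 8 macrophage and monocyte markers 4 were called higher, with lysozyme Lyz2 the most abundant (log2 fold change 2.91), and their sum went from 660 to 968 CPM in controls to 2526 to 3926 CPM in treated tumors. Of 6 T cell markers 3 were called higher, with sums of 5.72 to 16.6 CPM in controls and 20.9 to 65.8 CPM in treated tumors, as was 1 of 4 mast cell markers. None of the 4 B cell, 4 endothelial and 7 acinar markers was called. Of 7 fibroblast markers 6 were called higher, and all 6 epithelial and 4 of 5 mesothelial markers were called lower. All 5 adipocyte markers were called higher at TP1, TP2 and TP3 (median log2 fold change 5.40, 5.75 and 8.74). In bulk RNA, fewer cells of a type and less RNA per cell cannot be told apart, and the part of these cell types in the cytokine changes was not tested.

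**Figure D2:**
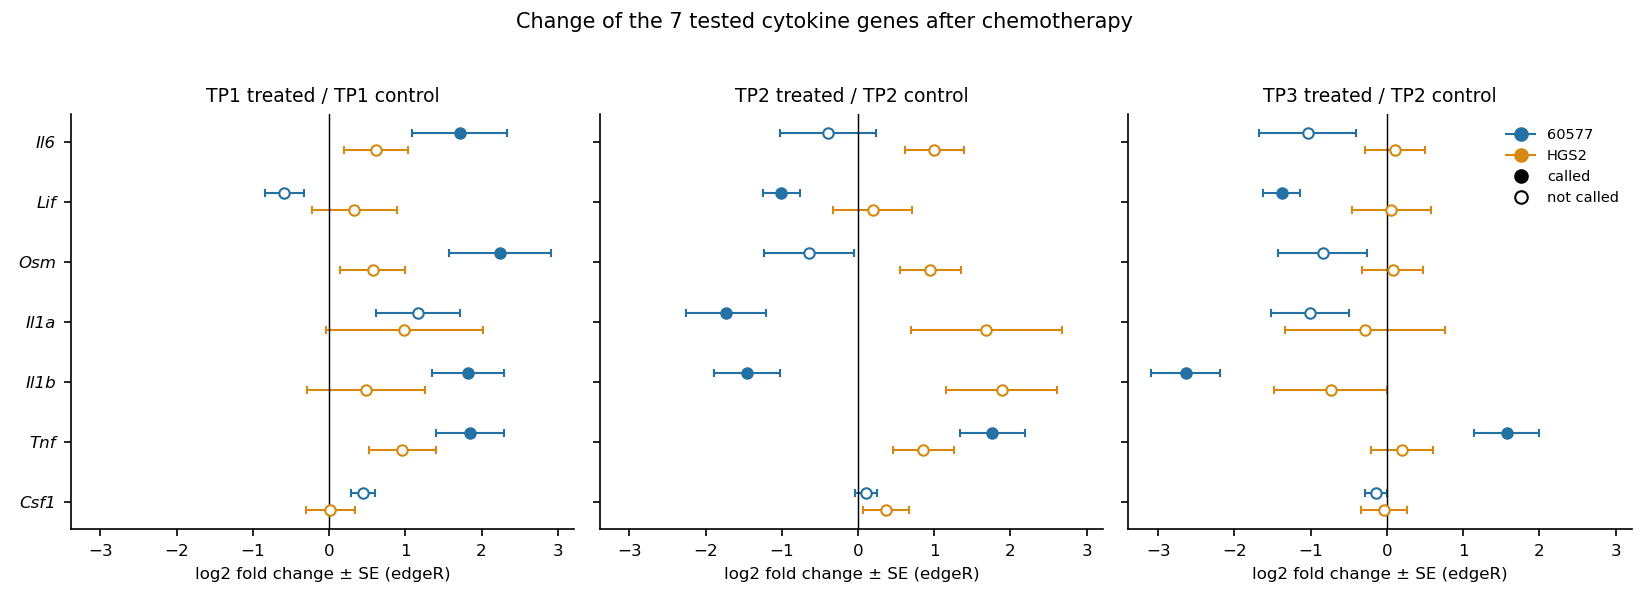
Log2 fold change (point, with its SE as the bar) of the 7 tested members in 60577 and HGS2 for TP1 treated against TP1 control, TP2 treated against TP2 control and TP3 treated against TP2 control, with filled points called and open points not called. All filled points belong to 60577. Tnf lies between 1.57 and 1.85 in its 3 panels, while Il1b goes from 1.82 to -1.45 and -2.64.

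At TP2, 7 days after chemo, the called members of 60577 went both ways. Tnf was called higher, and Il1b, Il1a and Lif were called lower, 4 of 7 in all, against 24.4% of all genes tested. The median of the 7 log2 fold changes was -0.64, against 0.03 over all genes.

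Tnf was at 2.22, 2.39 and 1.19 CPM in TP2 controls and at 5.87, 3.90, 7.90 and 9.09 CPM in treated tumors. Every treated tumor exceeded every control, with a log2 fold change of 1.76 ± 0.43 (edgeR adjusted p = 0.0029), and the call held with any of the 17 tumors left out. Il1b went the other way, from 17.9, 20.1 and 6.74 CPM in controls to 6.26, 4.88, 7.06 and 3.85 CPM after chemo. Control replicate 3 lay within the treated range. The log2 fold change was -1.45 ± 0.44 (edgeR adjusted p = 0.011), and without control replicate 2 it was -1.17 (adjusted p = 0.055). Il1a stood at 2.81, 6.89 and 1.11 CPM in controls and at 1.90, 0.510, 1.23 and 0.761 CPM after chemo. It was called lower (log2 fold change -1.73 ± 0.53, edgeR adjusted p = 0.011), but this rested on control replicate 2, without which the log2 fold change was -0.85 (adjusted p = 0.167).

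Lif was at 23.6, 40.0 and 16.2 CPM in the TP2 controls and at 12.4, 12.9, 15.4 and 13.0 CPM in the treated tumors. The groups were apart and the log2 fold change of -1.004 ± 0.24 (edgeR adjusted p = 0.0025) lay at the fold limit. Without control replicate 2 it was -0.57 (adjusted p = 0.026), below that limit, and without treated replicate 1 or 2 it was -0.99 or -0.98. It also fell short of the fold limit by limma-voom (-0.93) and with offsets for GC content and length (-0.98). When both models were fitted together, Lif (adjusted p = 0.053), Il1b (adjusted p = 0.060) and Il1a (adjusted p = 0.065) lost their calls at TP2.

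The same control tumor dominated Osm. TP2 control replicate 2 held 11.7 CPM, against 1.80 and 0.781 CPM in the other controls and 2.79, 2.51, 3.78 and 3.44 CPM in the treated tumors. With all tumors the log2 fold change was -0.64 ± 0.59 and was not called (edgeR adjusted p = 0.360). Without that control, Osm was called higher after chemo (log2 fold change 1.25, adjusted p = 0.0095). That control was also the highest of its group in Il6 (1.55 CPM against 0.327 and 0.206 CPM), Il1a, Lif and Il1b. Il6 was not called at TP2 (treated 0.358 to 0.736 CPM), with a log2 fold change of -0.39 ± 0.63 that turned to 0.998 (adjusted p = 0.194) without that control. Csf1 was not called either, at 174, 150 and 159 CPM in controls and 143, 188, 174 and 194 CPM in treated tumors (log2 fold change 0.11 ± 0.15).

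Of the 6 tested neutrophil markers, 3 were called lower at TP2 and none higher. S100a8 (log2 fold change -3.16), S100a9 (-2.85) and the chemokine receptor Cxcr2 (-1.97) were called lower, whereas Mmp9 (0.53) and Csf3r (0.04) were not called. The summed level of the 8 markers, which Mmp9 and Csf3r lead, was 28.0 to 89.7 CPM in controls and 36.7 to 66.7 CPM in treated tumors, and Ly6g had no count in 2 of 3 controls and in all 4 treated tumors. Of the 8 macrophage and monocyte markers 2 were called higher, Lyz2 (1.54) and the mannose receptor Mrc1 (1.18), while 3 had negative log2 fold changes that were not called (median of the 8, 0.27), a group that summed to 865 to 1308 CPM in controls and to 1017 to 3189 CPM after chemo. All 6 T cell, all 4 B cell, 2 of 7 fibroblast and 1 of 4 endothelial markers were called higher, all 6 epithelial and 1 of 5 mesothelial markers lower, and 2 of 4 mast cell markers higher and 1 lower. All 7 acinar markers were called lower (median log2 fold change -7.02), with acinar genes at 0.144% of the counts in TP2 control replicate 1 and 0.0229% in control replicate 3. The part of these cells in the levels of Il1b and Tnf was not tested.

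**Figure D3:**
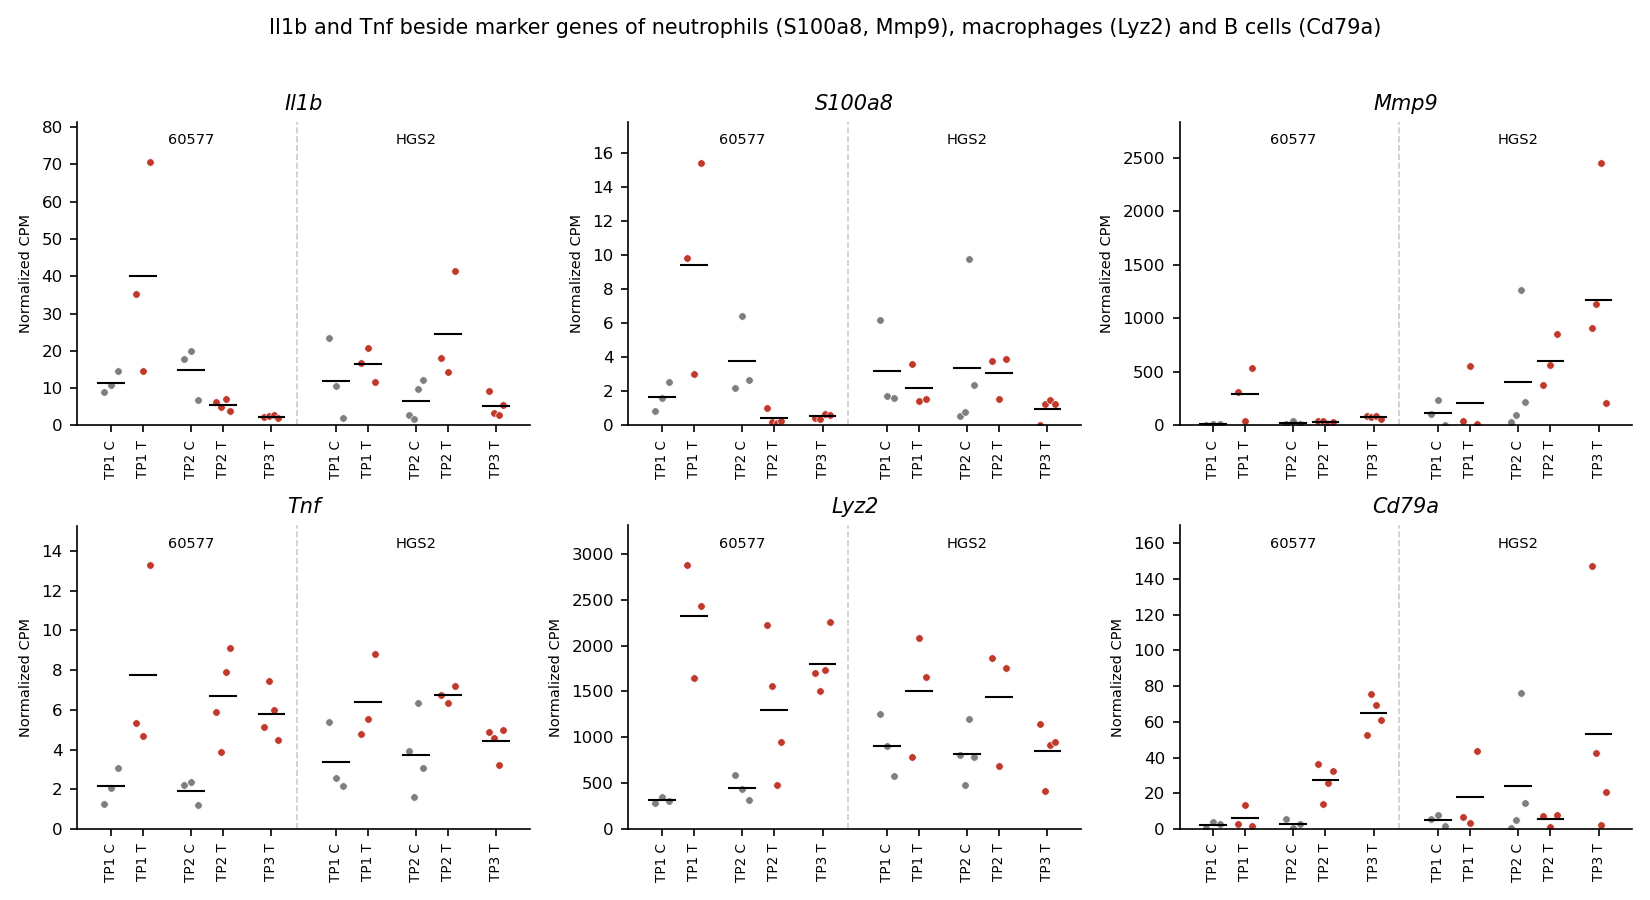
Normalized CPM in each omental tumor (point, gray control and red treated, bar at the group mean, linear axes from 0) of Il1b and Tnf beside the neutrophil markers S100a8 and Mmp9, the macrophage marker Lyz2 and the B cell marker Cd79a. In 60577, Il1b and S100a8 are both highest in treated tumors at TP1 and both low at TP2 and TP3, whereas Tnf stays between 3.90 and 13.3 CPM in all 11 treated tumors. Mmp9 goes another way than S100a8, being not called at TP2 and called higher at TP3 against the TP2 controls.

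At TP3, 21 days after chemo, Il1b had reached its lowest level in 60577 and Tnf remained above the TP2 controls. Tnf, Il1b and Lif were called against the TP2 controls, 3 of 7, against 24.4% of all genes. This comparison uses the same controls as that of TP2. Il1b was at 2.19, 2.52, 2.94 and 1.90 CPM, below every control, with a log2 fold change of -2.64 ± 0.45 (edgeR adjusted p = 0.00020). Tnf was at 5.14, 7.47, 6.00 and 4.49 CPM, above every control (log2 fold change 1.57 ± 0.43, edgeR adjusted p = 0.0061). Both held with any of the 17 tumors left out. Lif was at 8.41, 14.03, 8.998 and 9.196 CPM, below every control (log2 fold change -1.38 ± 0.24, edgeR adjusted p = 0.00023), and without TP2 control replicate 2 the log2 fold change was -0.95 (adjusted p = 0.0012), under the fold limit. Osm, at 2.30 to 3.05 CPM, was not called, and here too control replicate 2 set the direction, with -0.84 ± 0.59 for all tumors and 1.05 (adjusted p = 0.024) without it. Without control replicate 3, Osm (-1.34, adjusted p = 0.032) and Il1a (-1.43, adjusted p = 0.021) were called lower. With all tumors the log2 fold change of Il1a was -1.01 ± 0.51, and leaving out a single tumor took it as far as -0.12. Il6 (0.144 to 0.548 CPM), Il1a (1.33 to 2.08 CPM) and Csf1 (139 to 149 CPM) were not called with all tumors, and the log2 fold change of Il6 (-1.04 ± 0.64) turned to 0.36 without control replicate 2. At TP3 the markers S100a8 (-2.80), S100a9 (-3.53), Cxcr2 (-2.50) and the collagenase Mmp8 (-2.10) were called lower and Mmp9 higher (1.83). Higher calls covered 6 of 6 T cell, 4 of 4 B cell, 2 of 8 macrophage, 3 of 7 fibroblast, 2 of 4 endothelial and 3 of 4 mast cell markers, and lower calls 6 of 6 epithelial and 4 of 5 mesothelial markers. Their part in the cytokine levels at TP3 was not tested.

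Between the treated tumors themselves, the level fell from TP1 to TP2 for Il1b (log2 fold change -2.87 ± 0.45, edgeR adjusted p = 0.0025), Il6 (-2.39 ± 0.59, adjusted p = 0.016) and Il1a (-2.01 ± 0.53, adjusted p = 0.020), 3 of the 7 members, against 6.02% of all genes. In each of the 3 the TP1 and TP2 tumors were apart. Il1b kept its call with any tumor left out (-2.18, adjusted p = 0.018, without TP1 treated replicate 3), Il6 lost it without TP1 treated replicate 3 (-1.96, adjusted p = 0.069), and Il1a lost it without TP1 treated replicate 1 (-1.57, adjusted p = 0.119), TP1 treated replicate 3 (-2.04, adjusted p = 0.052) or TP2 treated replicate 4 (-1.89, adjusted p = 0.063), and when both models were fitted together (adjusted p = 0.116). Tnf changed by -0.22 ± 0.40, Osm by -0.92 ± 0.59 and Lif by -0.31 ± 0.24, none of them called. Csf1 (-0.45 ± 0.15, edgeR adjusted p = 0.045) passed the p limit and not the fold limit. All 6 tested neutrophil markers were called lower in this step, from S100a8 (-4.47) to Csf3r (-1.37), as were 2 of 8 macrophage and monocyte markers, Cd14 (-2.19) and Cd68 (-1.88), 3 of 7 fibroblast markers and 1 of 6 epithelial markers. All 4 B cell markers and 1 of 6 T cell markers were called higher. The part of these cells in the fall of Il1b, Il6 and Il1a was not tested. From TP2 to TP3, Il1b fell further (-1.18 ± 0.43, edgeR adjusted p = 0.044), the only member called, against 7.87% of all genes, and this call was lost when any of 13 of the 17 tumors was left out (adjusted p up to 0.119 without TP2 treated replicate 3). In this step none of the 6 tested neutrophil markers was called, and 5 of 5 adipocyte, 6 of 7 acinar, 2 of 4 mast cell, 1 of 7 fibroblast and 1 of 8 macrophage markers were called higher and 1 of 5 mesothelial markers lower. Their part in the level of Il1b was not tested.

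In HGS2 all 7 tested members had positive log2 fold changes at TP1 (median 0.57) and at TP2 (median 0.95). Over all genes these medians were 0.00 and -0.02. Controls with many acinar counts were among the lowest in both comparisons. TP1 control replicate 3 was the lowest of its group in Il6, Lif, Osm, Il1b, Tnf and Csf1. TP2 control replicate 2 was the lowest of its group in Osm, Il1a, Il1b, Tnf and Csf1. The part of acinar tissue in these log2 fold changes was not tested. No gene, and so no member, was called by edgeR in any of the 5 HGS2 comparisons (0% in each). An unadjusted p below 0.05 was reached by 413 genes at TP1, 1233 at TP2, 406 for TP3 against TP2 controls, 152 from TP1 to TP2 and 1690 from TP2 to TP3. The DESeq2 Wald test called 1, 8, 5, 1 and 105 genes in these 5 comparisons, with no member among them, and limma-voom called 0 in each. At TP1 the SE of the log2 fold change was larger in HGS2 than in 60577 for Il1b (0.77 against 0.47), Il1a, Lif and Csf1, and smaller for Il6 (0.42 against 0.62), Osm and Tnf.

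At TP1 in HGS2, Tnf was at 5.37, 2.57 and 2.14 CPM in controls and at 4.80, 5.56 and 8.80 CPM in treated tumors, which overlapped (log2 fold change 0.96 ± 0.44, edgeR adjusted p = 0.999). Il1b was at 23.6, 10.5 and 1.99 CPM in controls and at 16.8, 20.7 and 11.6 CPM after chemo (0.48 ± 0.77). With each tumor left out in turn, its log2 fold change ran from -0.04 to 1.37. The interval for Il1b ran from -1.03 to 2.00 and so held both no change and the size seen in 60577. Il6 (0.62 ± 0.42), Osm (0.57 ± 0.43), Il1a (0.99 ± 1.03), Lif (0.33 ± 0.55) and Csf1 (0.02 ± 0.33) had overlapping groups. Lif (-0.16 to 0.64) and Csf1 (-0.31 to 0.19) also changed sign with single tumors left out.

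At TP2 in HGS2, Il1b was at 2.94, 1.70, 9.82 and 12.2 CPM in controls and at 18.1, 14.2 and 41.3 CPM in treated tumors. All treated tumors lay above all controls, yet the log2 fold change of 1.89 ± 0.72 was not called (edgeR adjusted p = 0.610). Il6 was at 1.08, 1.39, 2.41 and 2.19 CPM against 2.12, 4.05 and 4.49 CPM (1.00 ± 0.39), with overlap. Osm was at 1.78, 0.925, 3.46 and 1.93 CPM against 2.78, 4.25 and 4.67 CPM (0.95 ± 0.40), with overlap. Tnf was at 3.94, 1.62, 6.36 and 3.06 CPM against 6.73, 6.35 and 7.21 CPM (0.86 ± 0.40), the groups meeting at their edges. Il1a (1.68 ± 0.99), Lif (0.19 ± 0.52) and Csf1 (0.37 ± 0.30) had overlapping groups, and Il1a ran from 0.89 to 3.43 with single tumors left out. By TP3 the Il1b level of the 3 tumors tested was 3.38, 2.87 and 5.60 CPM, below every treated tumor of TP2, with a log2 fold change of -2.62 ± 0.82 that was not called (edgeR adjusted p = 0.412). Neutrophil markers did not pass in HGS2 at TP2 either (S100a8 -0.10, Cxcr2 1.63, Csf3r 1.32). Their sums of 49.03 to 1310 CPM in controls and 430 to 918 CPM in treated tumors were led by Mmp9 in all 7.

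Il1b was the only one of the 7 members whose response to chemo was called different between the models. At TP2 its response was higher in HGS2 than in 60577 by 3.32 ± 0.88 on the log2 scale (edgeR adjusted p = 0.021), 1.89 in HGS2 and -1.45 in 60577, and 6.9% of all genes were called for a difference at TP2. The call was lost without HGS2 TP2 treated replicate 3 (2.71, adjusted p = 0.068) and without 60577 TP2 control replicate 2 (3.04, adjusted p = 0.070). Il1a differed by 3.39 ± 1.11 and just missed (adjusted p = 0.051). Il1a was called with DESeq2 size factors (adjusted p = 0.046), by the DESeq2 Wald test (adjusted p = 0.018) and with any of 10 of the 33 tumors left out, at most to a difference of 5.17 (adjusted p = 0.0055) without HGS2 TP2 control replicate 3. With other single tumors left out, its difference was as low as 2.51 and the edgeR adjusted p as high as 0.201. For Tnf the difference of -0.93 ± 0.61 did not pass, with an interval of -2.12 to 0.26. At TP1, 1.45% of all genes were called for a difference and none of the 7 members, the largest difference being that of Osm (-1.69 ± 0.81, edgeR adjusted p = 0.261). Among markers, 1 of 6 tested neutrophil markers was called for a difference at TP2 (Cxcr2, 3.57), and 2 of 4 B cell markers were called lower in HGS2 (Cd79a, -5.43, and Cd79b, -4.55).

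Between the controls of both models, 2 of 7 members were called, against 22% of all genes. Il6 was higher in HGS2 (log2 fold change 1.35 ± 0.40, edgeR adjusted p = 0.0065), at 1.08 to 2.96 CPM in the 7 HGS2 controls (median 2.12 CPM) and 0.206 to 1.55 CPM in the 6 of 60577. Il1a was lower in HGS2 (-2.32 ± 0.59, adjusted p = 0.0019), at 0 to 1.48 CPM against 1.11 to 6.89 CPM. Both calls held with any library left out, and the sizes grew to 2.04 for Il6 without 60577 TP2 control replicate 2 and to -3.21 for Il1a without HGS2 TP2 control replicate 3. Tnf (0.79 ± 0.32, adjusted p = 0.038) and Csf1 (0.49 ± 0.18, adjusted p = 0.027) passed the p limit and not the fold limit. Higher calls in HGS2 controls covered 6 of 8 macrophage and monocyte, 5 of 7 fibroblast, 7 of 7 acinar, 4 of 6 T cell, 3 of 4 mast cell, 2 of 4 B cell, 2 of 4 endothelial, 2 of 5 adipocyte and 1 of 6 neutrophil markers, and lower calls 5 of 6 epithelial and 1 of 5 mesothelial markers. Their part in the differences of Il6 and Il1a was not tested.

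Il11, Csf2 and Csf3 were low in most tumors, and reached 1 CPM in 6, 0 and 0 of the 33 tumors tested. Their highest counts in a tumor were 105 for Il11, 19 for Csf2 and 27 for Csf3. A level of 3 counts corresponds to 0.0689 to 0.174 CPM in these tumors, for counting error only. Csf2 stayed between 0 and 0.636 CPM in all 34 tumors. Csf3 was at 0.196, 0.838 and 0.123 CPM in the TP2 controls of 60577 and at 0, 0.0364, 0.0981 and 0.0401 CPM in treated tumors, where no tumor reached 3 counts. Il11, a cytokine of fibroblasts and epithelium, was at 0.720, 1.71 and 0.164 CPM in these controls and at 0.179, 0.0364, 0.294 and 0.0801 CPM after chemo. When no filter was applied, edgeR called both lower at TP2 (adjusted p = 0.0081 for Il11 and 0.0096 for Csf3), at TP3 (0.026 and 0.0061) and from TP1 to TP2 among treated tumors (0.048 and 0.038). Il11 was then also called for a difference in response between the models at TP2, higher in HGS2 (adjusted p = 0.046). 60577 TP2 control replicate 2 was the highest of its group in Il11 (55 counts) and in Csf3 (27 counts). The unfiltered fit was not repeated without that tumor. The highest levels of Il11 were 3.62 CPM in HGS2 TP1 control replicate 1, 2.48 CPM in HGS2 TP1 treated replicate 2 and 2.32 CPM in HGS2 TP2 treated replicate 3.

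In the lines, Csf1 and Lif were the members that passed the filter. Csf1 was at 520 and 341 CPM in the 60577 line and at 713 and 481 CPM in the HGS2 line. Lif was at 54.1 and 45.8 CPM in the 60577 line and at 29.4 and 23.95 CPM in the HGS2 line. In the control tumors Csf1 lay between 117 and 347 CPM and Lif between 3.24 and 40.0 CPM, values from another table that was scaled separately, so no test was made. Lif was lower in the HGS2 line (log2 fold change -0.90 ± 0.21, edgeR adjusted p = 0.038), within the fold limit, so neither of the 2 tested members was called, against 15.9% of the 13742 genes tested. Csf1 differed by 0.47 ± 0.33 (adjusted p = 0.356). Il1b had no count in any of the 4 libraries, and Osm, Il1a and Tnf had none in the HGS2 libraries and at most 0.192 CPM in those of 60577. A count of 0 allows a level of up to 0.0673 to 0.101 CPM here. Il6 was at 0.0673 to 0.324 CPM. Csf2 was at 0.466 and 0.875 CPM in the 60577 line and at 0.0337 and 0.0270 CPM in the HGS2 line, where each library had 1 count. Without the filter, edgeR called Csf2 lower in the HGS2 line (adjusted p = 0.00045). Neutrophil markers summed to at most 1.66 CPM in the lines, with S100a9, Retnlg, Ly6g and Csf3r at 0 in all 4, and macrophage markers to at most 20.0 CPM, led by Cd14.

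**Figure D4:**
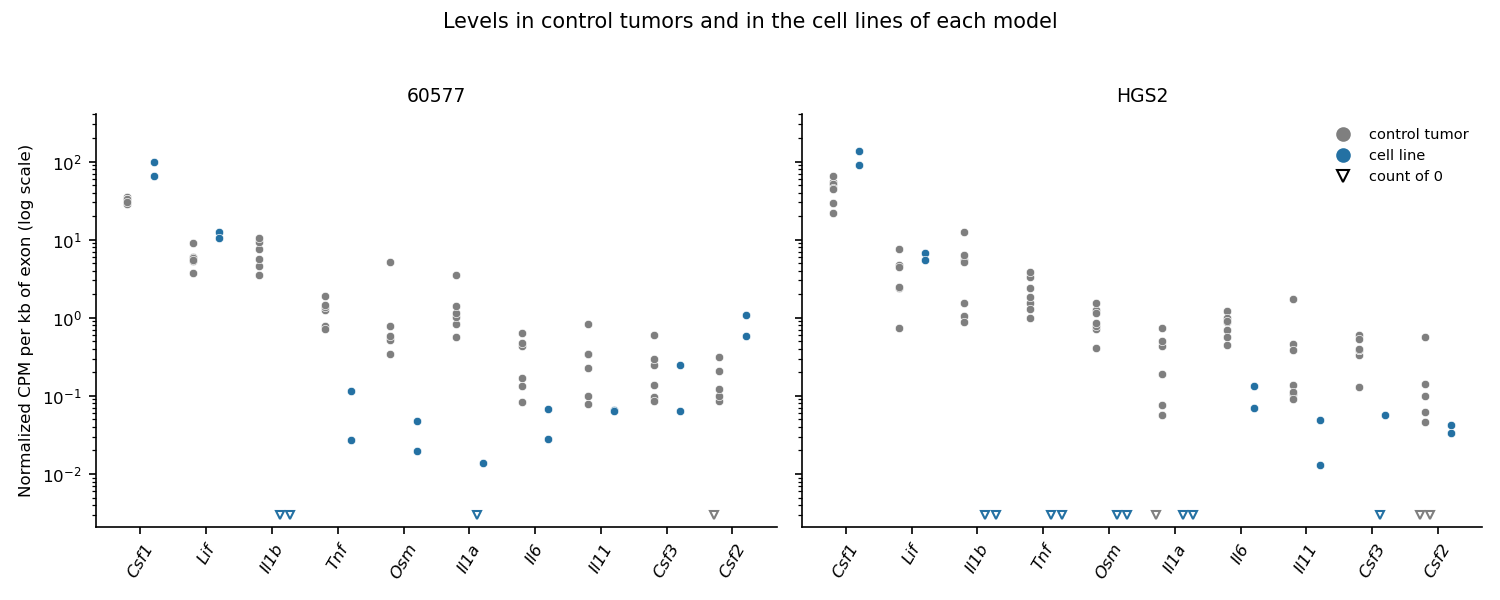
Normalized CPM per kb of exon (log axis) of the 10 genes in the control tumors (gray) and cell line libraries (blue) of 60577 and HGS2, with open triangles at the bottom for counts of 0. Csf1 and Lif are the 2 highest genes in both lines, and Il1b sits at 0 in all 4 line libraries.

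The other genes of these pathways were followed as lists by role. Of 14 receptor genes, 5 were called higher in 60577 at TP1, 2 at TP2 and 1 at TP3, and none was called lower (median log2 fold change 0.41, 0.21 and 0.19), where the shares over all genes were 15.6%, 24.4% and 24.4%. Il6ra, the specific chain of the interleukin 6 receptor, was called higher at all 3 time points (1.07, 1.20 and 1.62), from 22.4 ± 3.90 CPM in TP1 controls (SD, n = 3) to 78.9 ± 2.89 CPM at TP3 (n = 4). The receptor chain Csf2rb, shared with interleukins 3 and 5, rose at TP1 (1.94), as did its relative Csf2rb2 (1.67), the neutrophil receptor Csf3r (1.97) and Csf2ra (1.59, and 1.38 at TP2). The shared chain Il6st was not called in tumors.

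Inhibitors split in direction. Of 8, 2 were called higher at TP1, and 2 higher and 3 lower at both TP2 and TP3 in 60577, where 15.6%, 24.4% and 24.4% of all genes were called. Il1r2, a decoy receptor for interleukin 1, was called higher at TP1 and lower at TP2 and TP3 (log2 fold change 2.31, -2.005 and -2.64), from 0.809 ± 0.356 CPM in TP1 controls to 4.02 ± 2.48 CPM in treated tumors (SD, n = 3). Il1rn, the interleukin 1 receptor antagonist, was called lower at TP2 (-1.85) and TP3 (-2.61), from 58.8 ± 7.68 CPM in TP2 controls to 16.4 ± 3.96 and 9.57 ± 0.755 CPM. The feedback inhibitor Socs3, a STAT3 target, was called lower at TP2 and TP3 (-1.25 and -1.58), whereas Socs1, an inhibitor of interferon signaling, was called higher at all 3 (1.53, 2.21 and 1.64). Sigirr, another brake on interleukin 1 receptors, was called higher at TP2 and TP3 (1.77 and 1.19). Of 6 processing genes 1 was called higher at TP1, the inflammasome sensor Nlrp3 (1.89), none at TP2 or TP3 against controls, and 1 lower from TP2 to TP3 among treated tumors, the pore-forming Gsdmd (-1.10).

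Of 12 NF-kB and STAT3 target genes, 3 were called higher at TP1, 1 higher and 4 lower at TP2, and 4 lower at TP3, with medians of 0.54, -0.38 and -0.57 against -0.00, 0.03 and -0.00 over all genes. The shares called over all genes were again 15.6%, 24.4% and 24.4%. The neutrophil chemokines Cxcl2 (4.43) and Cxcl1 (1.26) and the acute-phase gene Saa3 (2.65) rose at TP1. Ptgs2, the inducible cyclooxygenase, was called lower at TP2 (-3.19) and TP3 (-4.19), and Cxcl1 likewise (-2.002 and -2.50). The TP2 controls were uneven, with Ptgs2 at 41.5 ± 55.1 CPM (SD, n = 3). Cxcl2 was called lower at TP2 (-3.14) and TP3 (-3.94) and Saa3 at TP2 (-2.78), with groups that overlapped. Junb was called lower at TP3 (-1.20) and Birc3 higher at TP2 (1.18). Of the 3 other growth factors of myeloid cells, Flt3l, which drives dendritic cells, rose from 2.71 ± 1.26 CPM in TP2 controls to 18.6 ± 4.48 CPM after chemo (2.77), and at TP3 Flt3l (2.48), Kitl (1.18) and Il34 (1.13), the second ligand of the Csf1 receptor, were all called higher. None of these genes was called in HGS2. At TP2 the difference between the models was called for Il1rn (2.56), Il1r2 (3.50), Socs3 (1.73), Ptgs2 (3.53), Cxcl1 (2.67), Cxcl2 (4.91) and Saa3 (3.96), all higher in HGS2, and for Flt3l (-2.26). Over all genes 6.9% were called for this difference. Without 60577 TP2 control replicate 2, the genes called for it fell from 1120 to 365. Calls of single pathway genes are not given for that setting.

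Between the lines, 3 of the 5 processing genes tested were called lower in HGS2, against 15.9% of all genes called, with log2 fold changes of -4.06 for Casp1, -3.17 for Pycard and -1.68 for Gsdmd (edgeR adjusted p = 0.0033, 0.0066 and 0.040). Casp4 (-1.36) and Adam17 (0.71) were not called. Of 11 receptors tested, Il1r1 (2.56) and Il6st (1.501) were called higher in the HGS2 line and Tnfrsf1b (-1.25) lower. Of 6 inhibitors, Il1rn (-3.54) and Tnfaip3 (-2.03) were called lower and Zfp36 (1.84) higher. Of 11 target genes, Icam1 (-3.40) and Nfkb2 (-1.31) were called lower and Ptgs2 (2.32) higher. Il34 (-3.93) was called lower and Kitl (2.68) higher.

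**Figure D5:**
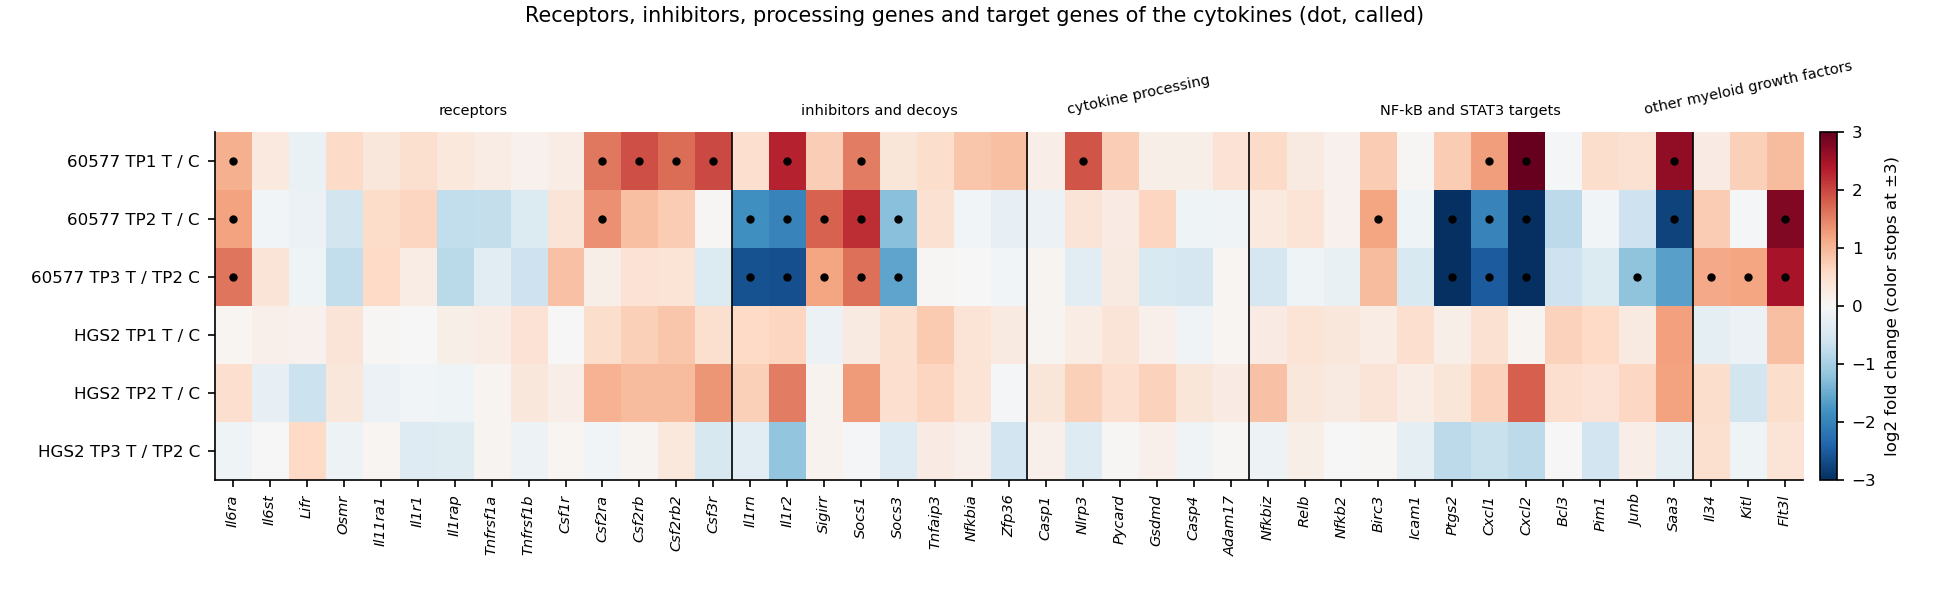
Log2 fold change (color, which stops at 3 in either direction) of receptors, inhibitors, processing genes, NF-kB and STAT3 target genes and other myeloid growth factors (columns) in 3 comparisons of each model (rows, T treated and C control), with a black dot where a gene was called. Dots appear in the 60577 rows only. Il1r2, Cxcl1, Cxcl2 and Saa3 turn from red at TP1 to blue at TP2, and Socs1 and Il6ra stay red.

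Over the 17 tumors of 60577, the genes whose log2 CPM was most like that of each member were named by Pearson's r, as a description, since tumors share their group and the same scaling. Il1b was closest to A730049H05Rik (r = 0.96), to Chil1, a secreted chitinase-like protein (0.95), and to Timp1, an inhibitor of matrix metalloproteinases (0.95). In the 16 HGS2 tumors r was 0.92 for Timp1, 0.37 for Chil1 and 0.08 for A730049H05Rik. All these genes were picked for a high r in 60577, so a lower r in HGS2 can come from that choice alone. Tnf was closest to Zdhhc18 (0.96), Fgd3 (0.96) and Baz1a (0.95), which in HGS2 had r of 0.78, 0.84 and 0.76. Lif was closest to the growth factor Hbegf (0.97), Urb2 (0.96) and Ankrd1 (0.96), with r of 0.31, 0.20 and 0.30 in HGS2. The genes closest to Osm (Ppp1r15a, 0.93), Il6 (Chsy3, 0.90) and Csf1 (Gm6093, 0.93) had r of -0.01, -0.21 and -0.02 in HGS2, and that of Il1a (Tmem189, 0.90) had 0.71.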

How the data were processed

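Omental tumors and cell lines were profiled by strand-specific paired-end RNA-seq after depletion of ribosomal RNA. The authors trimmed reads with Trim Galore 0.6.5, aligned them to GRCm38 with STAR 2.7.0f and deposited expected counts per gene from RSEM, 1 table for tumors and 1 for lines. A later correction for GC content by the authors is not in these values. Here expected counts were rounded and scaled by TMM, and genes with at least 1 CPM in 25% of libraries were kept (16241 in tumors, 13742 in lines). Gene identifiers were matched to GENCODE M21 (55227 of 55487). Each model was fitted as 5 groups in edgeR 4.0.16 (R 4.3.3), and both together for differences between models and between their controls. HGS2 TP3 treated replicate 1, which is not among the tumors of the study's own tables, was left out of the tests. Depths were 17839635 to 49299442 per tumor.

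Alternatives used DESeq2 1.42.0 (size factors, Wald test), limma-voom (limma 3.58.1), no filter, a replicate block, GC content and length offsets, a joint fit, all 34 tumors and each library left out in turn. Intervals and floors cover counting error or the spread between samples only. Replicate numbers did not pair samples, so no block was used. All 10 members are named. Genes of pathway lists are named where called with groups that do not overlap, up to 4 a list, and Cxcl2, Saa3 and others outside this rule were chosen after their values were seen. The 3 genes most like each member by Pearson's r over 60577 tumors were considered. The members and lists were chosen with earlier results of these data known. The fits were checked for the size and sign of known changes on counts simulated from the means and dispersions of these data. Such counts do not model single distant tumors or acinar tissue.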

Additional observations from a re-analysis of the deposited data

Results flagged for a closer look

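Dixon's test for a single distant tumor was run on 40 sets of values (each of the 10 genes in each group of 4 tumors) and marked 4, where chance marks about 1 in 20. Lif was at 14.03 CPM in 60577 TP3 treated replicate 2, against 8.41 to 9.196 CPM in the other 3 tumors of that group. HGS2 TP2 control replicate 3 stood apart in Il11 (0.8045 CPM, against 0.189 to 0.231 CPM) and in Il1a (1.006 CPM, against 0 to 0.151 CPM). In that tumor the neutrophil markers summed to 1310 CPM, against 49.03 to 248 CPM in the other 3 controls, with Mmp9 the most abundant in each. Il11 was at 0.3296 CPM in HGS2 TP3 treated replicate 2, one of the libraries with many counts of acinar genes, against 0 to 0.0371 CPM in the others. The response of Il1b at TP2 differed between the models by the test of the difference, at 3.3178 on the log2 scale (HGS2 minus 60577, edgeR adjusted p = 0.021). The part of other cell types in these values was not tested.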

How the results depend on the processing

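Of 18 calls of a member, 11 were kept under each other setting tried, 7 with each library left out in turn, and 7 under both. With 1 library left out, members called ranged from 1 to 4 (60577 TP1), 2 to 4 (TP2), 3 to 5 (TP3), 1 to 3 (treated, TP1 to TP2), 0 to 1 (treated, TP2 to TP3), 0 to 3 (difference between models at TP2) and 0 to 1 (lines). Genes called ranged from 254 to 1369 (TP1 to TP2), 732 to 2127 (TP2 to TP3), 62 to 647 and 365 to 1474 (differences between models at TP1 and TP2) and 503 to 3535 (lines). Osm ranged from -1.1381 to 1.2527 at TP2 and from -1.3385 to 1.0527 at TP3, positive without 60577 TP2 control replicate 2, and limma-voom with all tumors gave 0.14 at TP2 (not called). A setting chosen after seeing the data left out that tumor and TP1 treated replicate 3, and gave Osm 1.2525 and 1.0525, 2 members at TP1, 0 members and 323 genes for the difference at TP2 and 94 genes at TP1. Without a filter Il6 at TP1 was not called (adjusted p = 0.060), and 5 members were called at TP3, 5 from TP1 to TP2, 0 between TP2 and TP3, 2 for the difference at TP2 and 1 in the lines, with 111 genes for the difference at TP1, 5377 between controls and 3849 between lines. DESeq2 size factors and the DESeq2 Wald test each gave 2 members for the difference at TP2, and the Wald test gave 721 genes for that at TP1 and 1, 8, 5, 1 and 105 genes in the 5 HGS2 comparisons. Limma-voom called 0 members from TP2 to TP3. The joint fit of both models gave 1605 genes at TP1, 271 from TP1 to TP2 and 803 between TP2 and TP3, 1 member at TP2 and 0 from TP2 to TP3, and 3 and 1 genes in HGS2 (TP3 against TP2 controls, and TP2 to TP3). All 34 tumors gave 154 genes for the difference at TP1. The causes were not tested.

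Samples with the same replicate number did not deviate together (mean r -0.0352 in 60577 and -0.0246 in HGS2), and 3 of 17 and 4 of 16 libraries were closest to one of their own number. With the replicate block, 570 genes were called from TP1 to TP2 and 679 for the difference at TP2, and Lif at TP2 (-0.92), Il1a from TP1 to TP2 (adjusted p = 0.055) and Il1b from TP2 to TP3 (adjusted p = 0.058) were not called, which left 0 members in the last. In the lines the same-number r was -0.153, and a crossed pairing called 2221 genes and 0 members, against 2237 and 0 with the block as numbered. Depth limits Csf2 and Csf3, and Il11 in tumors with few counts.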
